A study of Astyanax mexicanus with 6 samples.

Results

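Liver open chromatin of 2 cave forms of Astyanax mexicanus, Pachon cave and Tinaja cave, was compared through 1 peak list for each form. Both forms belong to a freshwater fish, the Mexican tetra, which has a sighted river-dwelling surface form and blind, pale cave forms. The assay was ATAC-seq, which uses the Tn5 transposase to cut accessible DNA in nuclei and to attach sequencing adapters to the fragments. The labels give 2 Pachon cave samples and 2 Tinaja cave samples, all of whole liver, and no age, sex, feeding state or number of fish per sample. Each list is recorded under replicate 1 of its form, and the sources used here do not say whether it came from that sample alone or from both. In whole tissue, more cells of a type and more open DNA per cell cannot be told apart, and the liver label was not checked against marker genes, since no gene was assigned to a peak. Peaks that overlapped or touched were merged into 97146 regions. A region was classed as shared when it held a peak of both lists, and otherwise as Pachon-side only or Tinaja-side only. The Surface list entered no class, and with it the whole series held 110214 regions.

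Active promoters and enhancers are depleted of nucleosomes and so are cut readily by the transposase, whereas most of the remaining genome is packed and gives few fragments. The liver handles glucose, fat and bile acids, and cave forms of this species are known for fat storage and for surviving long periods without food. A peak in these lists records where fragments were dense, not which factor was bound or whether a gene was transcribed.

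More regions were shared between the 2 cave lists than were held by either alone, and the remainder was uneven, with more of it on the Tinaja side. Of the 97146 regions, 58314 were shared (60.03%, Wilson 95% interval 59.7 to 60.3). Pachon-side-only regions numbered 13130 (13.5%, interval 13.3 to 13.7), against 25702 Tinaja-side-only regions (26.5%, interval 26.2 to 26.7), a ratio of 0.511. That shared regions exceeded 50% of all regions depended on counting any overlap. When peaks had to overlap by 50% of both widths, 49.6% of regions were shared (interval 49.3 to 49.95). Overlapping peaks that failed this rule counted as separate regions, so the number of regions rose to 105028, which also lowers the percentage. The Pachon list was itself the shorter one, with 72521 peaks covering 48.1 Mb against 84653 peaks covering 56.9 Mb in the Tinaja list, a ratio of 0.857 in peaks and 0.845 in length. Since about the same number of peaks of each list was shared, the side-only ratio lies further from 1 than the ratio of list lengths by arithmetic. When the same number of widest peaks was kept in each list, which dropped 12132 Tinaja peaks and left none under 290 bp, the Pachon-side-only regions numbered 17375 and the Tinaja-side-only regions 17974, a ratio of 0.967. At equal length this ratio can differ from 1 only where peaks meet more than 1 partner. Its closeness to 1 is thus set by construction, and nothing is concluded from it about the uneven remainder. The part of sequencing depth in the longer Tinaja list was not tested, since the lists carry no read counts. Since each form has a single list, replicate error cannot be estimated and the forms were compared without a test. The Wilson intervals cover counting error only, and neighbouring regions are not independent.

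Measured in base pairs, the lists differed to about the same degree as in regions, partly within shared regions. The lists overlapped over 38.1 Mb of a union of 66.8 Mb, a Jaccard index of 0.571, which was 0.460 when each peak was replaced by 500 bp around its midpoint. Shared regions made up 74.5% of the union length, Pachon-side-only regions 8.47% and Tinaja-side-only regions 17.0%. Of the length covered by Pachon peaks, 79.4% was also covered by Tinaja peaks, 8.88% lay in shared regions beyond the reach of a Tinaja peak and 11.8% lay in Pachon-side-only regions. Of the length covered by Tinaja peaks, 67.05% was also covered by Pachon peaks, 12.95% lay in shared regions outside any Pachon peak and the rest, 11.4 Mb, lay in Tinaja-side-only regions. A large part of the length missing from the other list therefore lay at the flanks of common regions: 4.27 Mb of flank beside 5.66 Mb of side-only regions in Pachon (42.99% of the sum), and 7.37 Mb beside 11.4 Mb in Tinaja (39.3% of the sum).

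The 2 lists had nearly the same distribution of peak widths. The median width was 502 bp in Pachon and 506 bp in Tinaja, and the 10th and 90th percentiles were 268 and 1174 bp in Pachon, against 270 and 1199 bp in Tinaja. The narrowest peak measured 221 bp in Pachon and 226 bp in Tinaja, and the widest peaks were of similar size, 28064 bp in Pachon against 28141 bp in Tinaja. The Pachon list was shorter in every width class. The ratio of Pachon to Tinaja peaks was 0.886 under 300 bp, 0.889 from 500 to under 600 bp and 0.822 from 1000 to under 1500 bp, so the longer Tinaja list was not made up of narrow peaks alone.

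Sharing rose with width, steeply among narrow peaks and little above 800 bp. Of Pachon peaks under 300 bp, 60.9% overlapped a Tinaja peak (interval 60.1 to 61.8), and of Tinaja peaks under 300 bp, 37.8% overlapped a Pachon peak (interval 37.0 to 38.6). From 400 to under 500 bp the shares were 82.9% of Pachon peaks and 69.2% of Tinaja peaks. From 800 to under 1000 bp they were 94.1% of Pachon peaks and 89.9% of Tinaja peaks. At 2000 bp or more, 95.8% of 1903 Pachon peaks and 94.4% of 2323 Tinaja peaks were shared, and the intervals, 94.8 to 96.6 and 93.3 to 95.2, overlapped. The Pachon share was the higher one in all 9 width classes, by 23.1 percentage points under 300 bp and by 1.44 points at 2000 bp or more. A longer list offers more partners to a shorter one, which favours the Pachon share. With equal numbers of widest peaks, 76.04% of all Pachon peaks and 75.2% of all Tinaja peaks were shared, and at equal length the overall shares can differ only where peaks meet more than 1 partner. Within width classes this setting does not make the lists equal: from 500 to under 1000 bp it left 26123 Pachon and 30255 Tinaja peaks. The shares there were 89.5% of Pachon peaks and 84.0% of Tinaja peaks. No Pachon peak was dropped, so the Tinaja share in that class could not change. The Pachon share could only fall, since narrow Tinaja partners were removed. The setting could therefore only lower the Pachon lead in that class, and part of that lead remained.

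**Figure D1:**
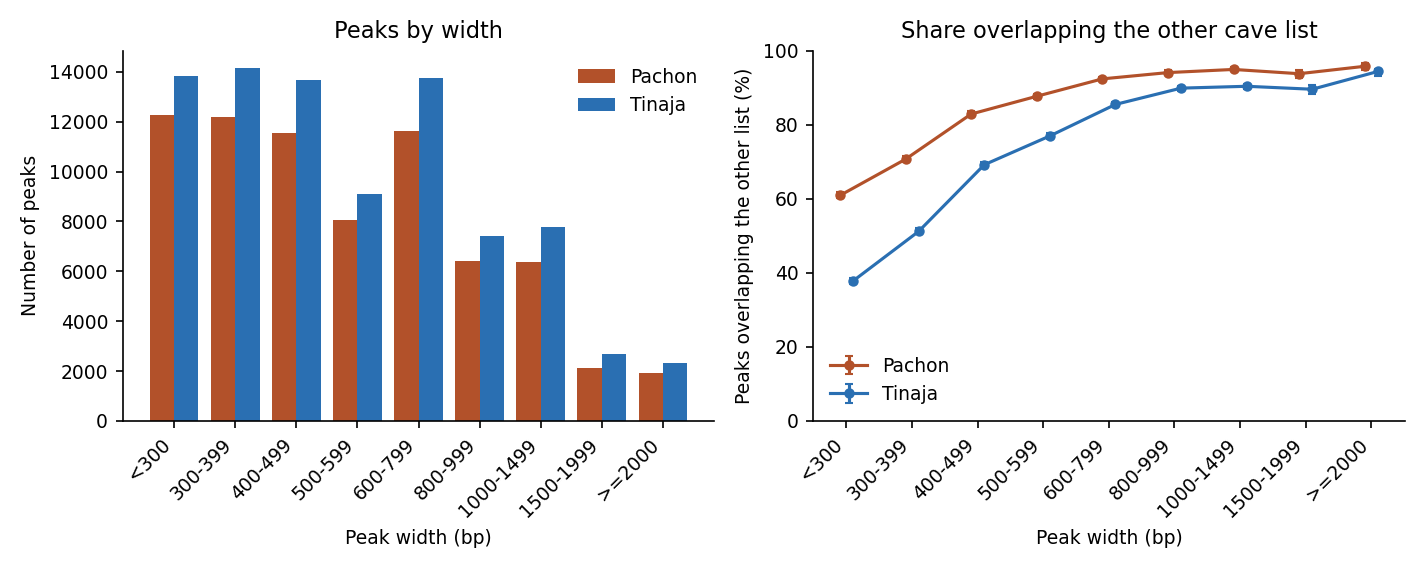
Left, number of peaks by peak width (bp) in the Pachon and Tinaja lists. Right, percentage of those peaks that overlap a peak of the other list, with Wilson 95% intervals; the shares go from 60.9% (Pachon) and 37.8% (Tinaja) under 300 bp to 95.8% and 94.4% at 2000 bp or more.

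Side-only regions of both forms were alike in length. The median was 341 bp for Pachon-side-only and 355 bp for Tinaja-side-only regions, against 670 bp for shared regions, which are lengths of merged peaks and so longer in part by construction. Under 300 bp lay 36.5% of the Pachon-side-only and 33.5% of the Tinaja-side-only regions, against 3.59% of shared regions. Wide side-only regions were few: 535 Pachon-side-only regions (4.07%) and 1151 Tinaja-side-only regions (4.48%) reached 1000 bp, and 80 and 131 of them reached 2000 bp. Of shared regions, 13837 (23.7%) reached 1000 bp and 2683 reached 2000 bp. The ratio of Pachon to Tinaja numbers was 0.465 for side-only peaks of at least 1000 bp and 0.611 for those of at least 2000 bp. For all peaks of these widths it was 0.817 and 0.819. Over all widths the side-only ratio was likewise below that of the peaks, 0.511 against 0.857, so the difference was not particular to wide regions.

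The 5 Pachon-side-only regions with the greatest covered length on chromosomes measured 3084 to 3766 bp, and each was a single peak. Coordinates are those of the deposited lists, written 1-based, and the labels name no genome build; names of unplaced scaffolds begin with APWO02, as in a public assembly of this species built from surface fish. The widest lay on chromosome 13, positions 16492060 to 16495825, with 3766 bp, and the nearest Tinaja peak was 11.6 kb away. Next came 3732 bp on chromosome 22, positions 15697539 to 15701270, with a Tinaja peak 3.13 kb away. Chromosome 6 held 2 of the 5, at positions 28869071 to 28872524 (3454 bp, a Tinaja peak at 4.24 kb) and at positions 1417674 to 1420757 (3084 bp, a Tinaja peak at 22.6 kb). The remaining one lay on chromosome 9, positions 10389166 to 10392299, with 3134 bp and no Tinaja peak within 16.9 kb. All 5 were far above the class median of 341 bp.

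The 5 corresponding Tinaja-side-only regions measured 3804 to 8090 bp and were single peaks too. The widest lay on chromosome 4, positions 3072861 to 3080950, and its 8090 bp held no Pachon peak, the nearest being 5.83 kb away. On chromosome 16, positions 13367721 to 13372221, a Tinaja peak of 4501 bp stood 69.2 kb from the nearest Pachon peak. A Tinaja peak of 4103 bp on chromosome 5, positions 31349640 to 31353742, stood 53.0 kb from the nearest Pachon peak and 86.3 kb from the nearest shared region. Those on chromosome 3, positions 67949725 to 67953532 (3808 bp), and chromosome 25, positions 5108938 to 5112741 (3804 bp), had a Pachon peak at 8.36 and 3.49 kb. Which genes lie at these places was not analysed here.

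The longest regions were mostly on unplaced scaffolds. Of the 10 longest Pachon-side-only regions 8 lay on scaffolds, as did 8 of the 10 longest Tinaja-side-only regions. Of all lengths, 4472 of 13130 Pachon-side-only and 8656 of 25702 Tinaja-side-only regions lay on scaffolds. The longest side-only region measured 7066 bp for Pachon, and the chromosome 4 region of 8090 bp was the longest for Tinaja. The 10 longest shared regions, 17431 to 28146 bp, all lay on scaffolds, which held 17508 of the 58314 shared regions.

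In most shared regions the peaks of both forms overlapped over most of the region, and where widths differed the Tinaja peak was more often the wider one. Of the 58314 shared regions, 56715 (97.3%) held 1 peak from each list and no more. In these, Pachon peaks had a median width of 553 bp and Tinaja peaks one of 602 bp. The log2 ratio of their widths, Pachon over Tinaja, had a median of -0.048, a ratio of 0.967, and the difference in width, Pachon minus Tinaja, one of -20 bp. The Pachon peak was wider in 21956 regions (38.7%), the Tinaja peak in 34357 (60.6%), and widths were equal in 402 (0.709%).

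Edges of paired peaks lay close together. The median distance between matching edges was 35 bp, and that between midpoints was 39 bp. Both edges lay within 50 bp in 36.1% of the paired regions, and 145 pairs (0.256%) were identical. The overlap made up a median of 82.96% of the region and under 50% in 5952 regions (10.5%). The Pachon peak lay inside the Tinaja peak in 18273 regions (32.2%) and the Tinaja peak inside the Pachon peak in 9322 (16.4%). In 24042 regions (42.4%) the peaks were staggered, each reaching further at one edge. Offsets were even on both sides: the Pachon peak stopped short of the Tinaja peak by a median of 5 bp at each edge.

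Large differences of width were uncommon. Of the 56715 regions with 1 peak of each list, the Pachon peak was at least 2-fold wider in 1144 (2.02%) and at most 1/2 as wide in 2755 (4.86%). Widths agreed within 10% in 41.0% of the regions and within 25% in 63.6%. The lean towards Tinaja was present in all 9 classes of mean width, taken as the geometric mean of both peaks, and was weakest among wide regions: the median ratio was 0.936 from 300 to under 400 bp, 0.969 from 600 to under 800 bp and 0.989 at 2000 bp or more. The spread narrowed in the same direction, from -1.21 to 0.82 on the log2 scale (5th to 95th percentile) at 400 to under 500 bp, to -0.57 to 0.37 at 2000 bp or more. Under 300 bp no pair differed 2-fold, which follows from the narrowest peaks of 221 and 226 bp, since a pair with such a difference has a larger mean width.

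**Figure D2:**
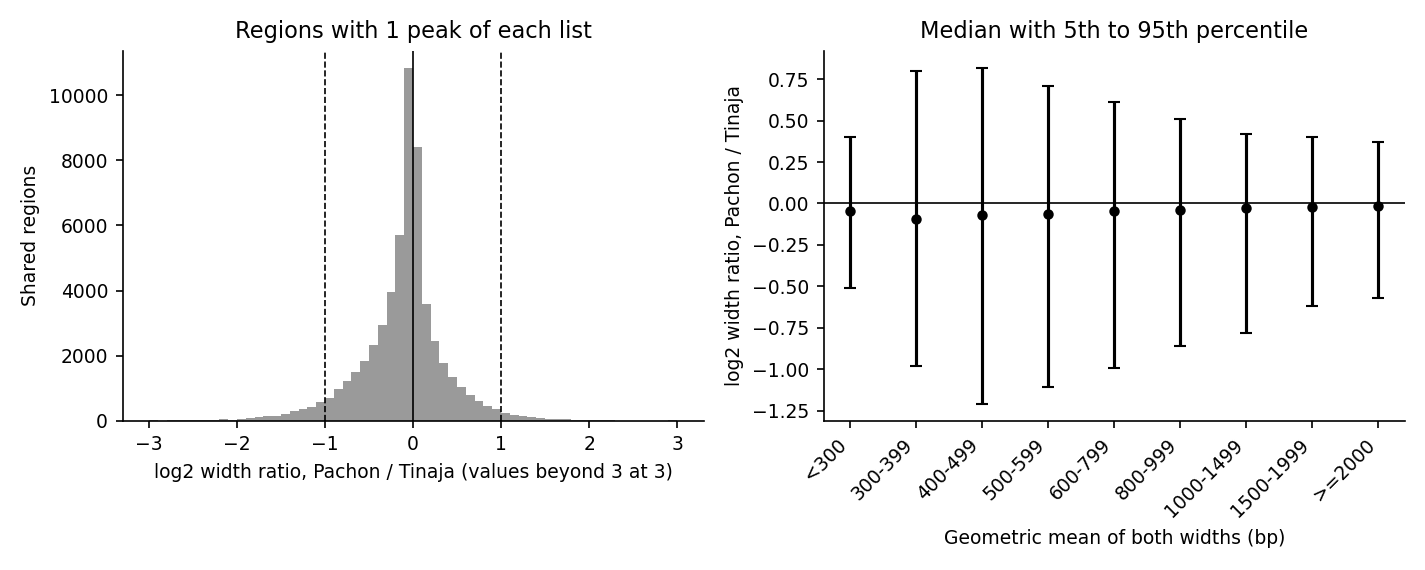
Left, number of shared regions with 1 peak of each list by log2 width ratio, Pachon over Tinaja; dashed lines mark 2-fold, and 4.86% of regions lie at or beyond the left line and 2.02% at or beyond the right one. Right, median log2 ratio (points) with the 5th to 95th percentile (bars) by the geometric mean of both widths (bp); every median lies below 0, and the bars shorten above 600 bp.

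The largest differences of width on chromosomes were single peaks that met a far wider partner. On chromosome 8, positions 11652608 to 11656099, the peak measured 3278 bp in Pachon and 365 bp in Tinaja, 8.98-fold wider, with 151 bp in common. On chromosome 20, positions 15656975 to 15660018, it measured 3026 bp in Pachon and 396 bp in Tinaja, and on chromosome 4, positions 19363420 to 19365425, 2006 bp in Pachon and 268 bp in Tinaja. In the opposite direction, a Pachon peak of 266 bp lay inside a Tinaja peak of 5865 bp on chromosome 13, positions 24467077 to 24472941, a 22.0-fold difference. Pachon peaks of 257 and 229 bp lay inside Tinaja peaks of 3280 bp on chromosome 6, positions 2016512 to 2019791, and of 2305 bp on chromosome 18, positions 12356382 to 12358686. Among these extremes the differences were larger on the Tinaja side, 10.1-fold to 22.0-fold, against 7.49-fold to 8.98-fold on the Pachon side. Over all paired regions the Tinaja peak was the wider one in 34357 and the Pachon peak in 21956. Large values are to be found more readily in the larger group, and the difference between the extremes was not tested.

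A small set of shared regions held several peaks of one list. In 973 regions (1.67% of the shared ones) several Pachon peaks met 1 Tinaja peak, and in 574 (0.984%) 1 Pachon peak met several Tinaja peaks. Up to 5 Pachon peaks and up to 4 Tinaja peaks fell in 1 region. The stretch between the divided peaks, without a peak of the divided list, had a median of 316 bp where Pachon was divided and 312 bp where Tinaja was. These regions were long, with a median of 1682 bp where Pachon was divided and 1683 bp where Tinaja was, and the undivided partner covered 1603 bp in Tinaja and 1538 bp in Pachon.

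Peaks along the genome were spaced alike in both forms, with the longer list packed more densely. Consecutive peaks lay a median of 8440 bp apart in Pachon, against 7531 bp in Tinaja. Gaps under 1 kb made up 9.88% in Pachon and 10.5% in Tinaja, and gaps over 50 kb 7.18% in Pachon and 5.22% in Tinaja. The frequency of gaps did not fall steadily with their length. In steps of 1 kb it fell to 4.41% of Pachon gaps and 4.91% of Tinaja gaps between 3 and 4 kb. It then rose to 5.71% of Pachon gaps and 6.16% of Tinaja gaps between 4 and 5 kb. Between 5 and 6 kb it was 5.82% of Pachon gaps and 6.24% of Tinaja gaps, and it fell again to 3.28% and 3.43% between 9 and 10 kb. Of the gaps between consecutive shared regions, 3.82% lay between 3 and 4 kb, 5.59% between 4 and 5 kb and 5.51% between 5 and 6 kb. A second maximum thus lay between 4 and 6 kb in both cave lists and among shared regions. The steps from 4 to 5 kb and from 5 to 6 kb were nearly tied, so its place within that range is not resolved.

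Side-only regions lay somewhat further from shared regions than these lay from each other, except at the shortest distances. Within 200 bp of a shared region lay 0.762% of the Pachon-side-only and 0.556% of the Tinaja-side-only regions, against 0.271% of shared regions with another shared region so near. Within 500 bp of a shared region lay 5.38% of the Pachon-side-only and 5.11% of the Tinaja-side-only regions, against 5.95% of shared regions with another shared region at that distance. Within 1 kb the shares were 12.1% of Pachon-side-only and 11.2% of Tinaja-side-only regions, against 14.96% of shared regions that had another shared region so near. The median distance to the nearest shared region was 6.49 kb for Pachon-side-only and 6.97 kb for Tinaja-side-only regions, and 5.28 kb from a shared region to the next. More than 50 kb from any shared region lay 548 Pachon-side-only (4.17%) and 1235 Tinaja-side-only regions (4.81%). Distance made little difference to length: within 500 bp the median length was 341 bp for Pachon-side-only and 362 bp for Tinaja-side-only regions, and beyond 50 kb it was 334 bp and 352 bp.

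**Figure D3:**
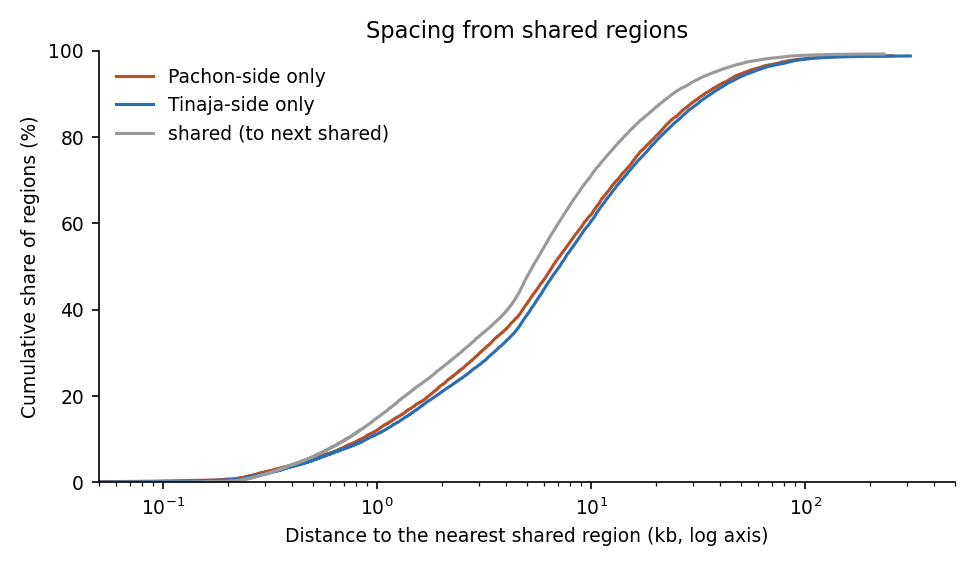
Cumulative percentage of regions by the distance to the nearest shared region (kb, log axis), for Pachon-side-only, Tinaja-side-only and shared regions (for these, to the next shared region). The medians are 6.49, 6.97 and 5.28 kb, and the curves of both side-only classes run close together.

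Regions of each class lay beside their own kind more often than their overall frequency. Of the neighbours of shared regions, 63.5% were shared, against 60.1% of all neighbours. Of the neighbours of Pachon-side-only regions, 18.3% were Pachon-side only, against 13.5% of all neighbours. Tinaja-side-only regions made up 32.1% of the neighbours of Tinaja-side-only regions, against 26.4% of all neighbours. The mixed pairing showed no such excess: 26.01% of the neighbours of Pachon-side-only regions were Tinaja-side only, against the same 26.4%. With equal numbers of widest peaks the pattern was 22.8% against 19.4% for Pachon-side-only and 25.97% against 20.01% for Tinaja-side-only regions.

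Most runs of side-only regions nevertheless held a single region. On chromosomes, 84.1% of the 7226 runs of Pachon-side-only regions and 70.9% of the 11773 runs of Tinaja-side-only regions held 1 region. Counted by regions, 6080 of 8658 Pachon-side-only and 8352 of 17046 Tinaja-side-only regions stood singly. Most Tinaja-side-only regions there thus had a neighbour of their own class. Runs of at least 5 numbered 8 for Pachon and 161 for Tinaja. The longest Pachon-side-only run held 6 regions and occurred at 6 places, the first on chromosome 14, positions 8297785 to 8402006, over 104 kb. The longest Tinaja-side-only run held 13 regions on chromosome 13, positions 30178335 to 30262331, over 84.0 kb. Longer runs are to be found more readily in the class with more regions, and the difference between the classes was not tested. Runs of shared regions reached 23, on chromosome 5, positions 24945092 to 25326305, and on chromosome 6, positions 26536952 to 26865085.

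By chromosome, the relation between the forms varied within narrow limits. On the 25 assembled chromosomes 61.4% of 66510 regions were shared, and the share went from 57.0% on chromosome 21 (interval 54.1 to 59.8) to 65.2% on chromosome 11 (interval 61.8 to 68.5). The interval took in 61.4% on 18 chromosomes, lay below it on 4 and above it on 3. Chromosome 21 also had the sparsest open chromatin, with 38.3 Pachon and 46.3 Tinaja peaks per Mb, against 61.6 Pachon and 68.8 Tinaja peaks per Mb on chromosome 8, the densest. Across the 25 chromosomes, which share the same lists, the density of regions and the share in common had a Spearman correlation of 0.11, given as a description.

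Every chromosome had fewer Pachon than Tinaja peaks, fewer Pachon-side-only than Tinaja-side-only regions and a median width ratio below 1. The ratio of side-only regions, Pachon over Tinaja, had a median of 0.504 over the chromosomes. It was lowest on chromosome 12, with 234 Pachon-side-only and 592 Tinaja-side-only regions (0.395), and highest on chromosome 17, with 290 and 414 (0.700). The 2 chromosomes were also the extremes in peaks, with 1464 Pachon and 1811 Tinaja peaks on chromosome 12 (0.808) and 1528 Pachon and 1649 Tinaja peaks on chromosome 17 (0.927). Chromosome 12 stood at the Tinaja end in widths too: its median log2 width ratio was -0.067, against -0.032 on chromosome 22 at the other end. On chromosome 12, 6.18% of the paired peaks were at most 1/2 as wide in Pachon as in Tinaja. That was the largest share of any chromosome, against a median of 4.21% over the chromosomes.

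With equal lists the direction of the side-only counts was no longer the same on every chromosome. The side-only totals of both forms are then close by construction, so leads on either side by chromosome follow from the setting. That setting both shortens the Tinaja list and removes its peaks under 290 bp, and these effects cannot be told apart. With equal numbers of widest peaks, Tinaja-side-only regions outnumbered Pachon-side-only ones on 14 chromosomes, and Pachon-side-only regions were the more numerous on the other 11. The ratio was then 0.747 on chromosome 12 and 1.52 on chromosome 17, still the lowest and the highest. These chromosomes were again the extremes in peaks, with a Pachon over Tinaja ratio of 0.940 on chromosome 12 and 1.11 on chromosome 17. The median width ratio stayed below 1 on all 25.

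**Figure D4:**
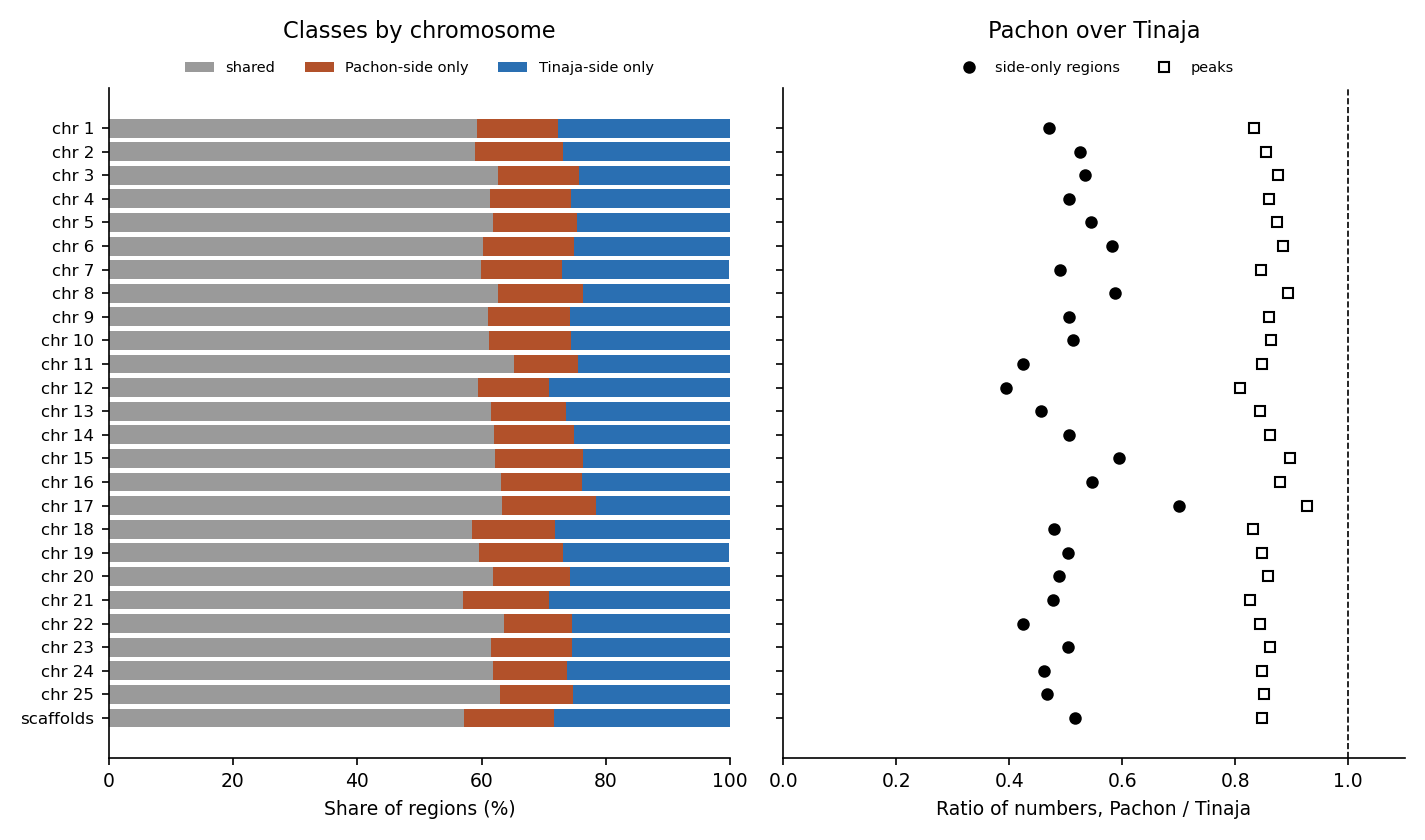
Left, percentage of regions that are shared, Pachon-side only and Tinaja-side only on each of 25 chromosomes and on unplaced scaffolds. Right, ratio of Pachon to Tinaja numbers for side-only regions (filled circles) and for peaks (open squares); side-only ratios go from 0.395 on chromosome 12 to 0.700 on chromosome 17, and all lie below 1 (dashed line).

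Unplaced scaffolds, with 30636 regions, differed somewhat from the chromosomes. Of their regions 57.1% were shared (interval 56.6 to 57.7), 14.6% Pachon-side only and 28.3% Tinaja-side only. The ratio of side-only regions was 0.517 there and 0.508 on chromosomes. Large differences of width were more frequent on scaffolds than on most chromosomes. On scaffolds 2.72% of paired peaks were at least 2-fold wider in Pachon and 6.16% at most 1/2 as wide. The medians over the chromosomes were 1.67% and 4.21%, and the highest values 3.16% on chromosome 1 and 6.18% on chromosome 12. On scaffolds with 5 to 19 regions 53.9% were shared, and on those with 100 regions or more 58.7%. Of 2011 scaffolds with a peak, 77 had peaks in the Pachon list only and 147 in the Tinaja list only. None of these held more than 5 peaks.

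The classes varied little with position along a chromosome. When each chromosome was divided into 10 equal parts, the shared percentage was 60.3% in part 1 and 59.8% in part 10, at the ends, and highest in part 5, with 62.8%. The ratio of Pachon-side-only to Tinaja-side-only regions lay between 0.474 and 0.540 in all 10 parts.

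At a scale of 1 Mb the classes varied more, over fewer regions and so with a larger counting error. Among 934 chromosomal windows with at least 20 regions, the shared percentage had a median of 62.0% and reached from 43.5% at the 5th percentile to 73.7% at the 95th. Pachon-side-only regions took 5.88% to 22.5% of a window between the same percentiles and Tinaja-side-only regions 15.2% to 40.9%. Pachon-side-only regions were the more numerous in 53 windows (5.67%), Tinaja-side-only regions in 857 (91.8%), and the numbers were equal in 24. The split was much the same for all peaks: Pachon peaks were the more numerous in 65 windows, Tinaja peaks in 839, and the numbers were equal in 30. The lead of the Tinaja side by window is therefore not particular to side-only regions.

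The 3 windows with the highest Pachon-side-only share held regions of all classes. On chromosome 23 from 24000001 to 25000000, 16 of 52 regions were Pachon-side only (30.8%), 21 were Tinaja-side only and 15 were shared, so this window was poor in common regions. On chromosome 19 from 24000001 to 25000000, 11 of 36 regions were Pachon-side only and 11 Tinaja-side only. On chromosome 6 from 48000001 to 49000000, 10 of 34 were Pachon-side only and 9 Tinaja-side only.

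With equal numbers of widest peaks the Pachon side led in all 3, with 19 Pachon-side-only and 18 Tinaja-side-only regions in the chromosome 23 window, 12 and 6 in that of chromosome 19, and 10 and 7 in that of chromosome 6. The balance between the sides in these windows therefore depended on which peaks were kept. By construction the setting removes Tinaja peaks alone, so it moves the balance towards Pachon. The windows were also picked for their Pachon-side-only shares, and the lead is a description.

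In the 3 windows with the highest Tinaja-side-only share, Tinaja-side-only regions far outnumbered Pachon-side-only ones. On chromosome 21 from 19000001 to 20000000, 2 of 27 regions were Pachon-side only and 18 Tinaja-side only (66.7%), with 9 Pachon and 25 Tinaja peaks. On chromosome 12 from 28000001 to 29000000, 8 of 50 regions were Pachon-side only and 31 Tinaja-side only, and with 11 shared it had the lowest shared percentage of the 934 windows. On chromosome 18 from 33000001 to 34000000, 2 of 63 regions were Pachon-side only and 37 Tinaja-side only (58.7%). With equal numbers of widest peaks Tinaja-side-only regions were still the majority or an equal part: Pachon-side-only regions numbered 3, 8 and 6 of 20, 42 and 52 regions in these windows, and Tinaja-side-only regions 11, 23 and 26. The windows were picked for these shares, which are therefore a description.

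The highest shared percentage was in a window of chromosome 6 (26000001 to 27000000), where 48 of 58 regions were shared (82.8%). Close behind came chromosome 19 from 21000001 to 22000000, with 66 of 80 (82.5%), and chromosome 25 from 8000001 to 9000000, with 61 of 75. With equal numbers of widest peaks the order changed, with 81.8% shared in the chromosome 6 window, 84% in that of chromosome 19 and 79.5% in that of chromosome 25. These windows too were picked for their shares. Chromosomes 6 and 19 thus held windows among the richest in Pachon-side-only and in shared regions.

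**Figure D5:**
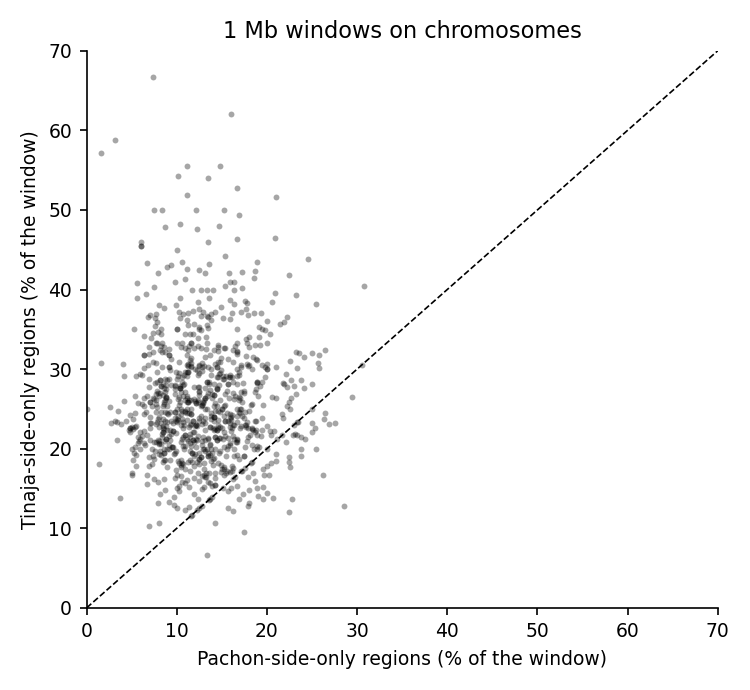
Each point is a chromosomal window of 1 Mb with at least 20 regions, placed by its percentage of Pachon-side-only regions (horizontal) and of Tinaja-side-only regions (vertical); the dashed line marks equal percentages. Most of the 934 windows lie above the line, with up to 30.8% Pachon-side-only and up to 66.7% Tinaja-side-only regions.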

How the data were processed

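The values analysed were the peak positions in 1 deposited list for each form. Per the submitters' processing notes, bcl2fastq 2.20, Bowtie2, SAMtools and MACS2 were used. The sources used here give no settings, read filters, Tn5 offset or peak threshold, and the labels name no genome build. The deposited score was 0 for every peak, so no peak could be ranked by enrichment, and the depth behind a peak is unknown. Peaks of both lists that overlapped or touched (0 bp apart) were merged. A peak counted as shared when it overlapped the other list by at least 1 bp. Distances are the bp between nearest ends on the same sequence. Regions named are the 5 widest of each side-only class and the 3 largest width ratios in each direction on chromosomes, the 3 windows of 1 Mb (at least 20 regions) richest in each class, and the longest runs. The comparison and its lists were chosen with earlier results of these data known. Python 3.11.15, numpy 2.4.6 and pandas 2.3.3 were used, and the merging, overlap and distance steps were tested on simulated data. No test between forms was planned or made, and 6 alternative settings were tried.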

Additional observations from a re-analysis of the deposited data

How the results depend on the processing

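No paired analysis was possible because each form has 1 list, and no replicate could be left out for the same reason. Under each of 6 settings Pachon-side-only regions were fewer than Tinaja-side-only ones and a larger share of Pachon than of Tinaja peaks was shared. Both statements rest on the same counts. Except with equal lists, the Pachon list stayed the shorter one, at 0.850 to 0.861 of the Tinaja peaks, which favours both outcomes by arithmetic. With equal numbers of widest peaks the side-only ratio, Pachon over Tinaja, was 0.967. By construction it can differ from 1 there only where peaks meet more than 1 partner, so that setting says little on either outcome. Shared regions were no longer the majority under a reciprocal overlap of 50%, which gave 49.6% of regions shared, 20375 Pachon-side-only regions, a Jaccard index of 0.525, 71.9% of Pachon and 61.6% of Tinaja peaks shared, a median log2 width ratio of -0.041, and 11.03% of Pachon-side-only and 10.1% of Tinaja-side-only regions within 1 kb of a shared one. Merging peaks within 200 bp gave 60.5% of regions, 82.2% of Pachon and 70.001% of Tinaja peaks shared. Peaks of at least 500 bp gave 59.4% of regions shared, 6782 Pachon-side-only and 13374 Tinaja-side-only regions, an index of 0.565, 81.4% of Pachon and 68.9% of Tinaja peaks shared, a log2 ratio of -0.029, and 6.81% of Pachon-side-only and 5.65% of Tinaja-side-only regions within 1 kb; by construction fewer peaks were compared. Equal numbers of widest peaks gave 60.5% of regions shared, an index of 0.573, 76.04% of Pachon and 75.2% of Tinaja peaks shared, a log2 ratio of -0.062, 10.5% of Tinaja-side-only regions within 1 kb, and more Tinaja-side-only regions on 14 chromosomes; by construction this setting removes Tinaja peaks alone. Chromosomes only gave 61.4% of regions shared, 8658 Pachon-side-only and 17046 Tinaja-side-only regions, an index of 0.583, 82.7% of Pachon and 70.7% of Tinaja peaks shared, and 10.8% of Tinaja-side-only regions within 1 kb. Windows of 500 bp around each midpoint gave 58.2% of regions shared, an index of 0.460, 79.9% of Pachon and 68.3% of Tinaja peaks shared, and 12.99% of Pachon-side-only regions within 1 kb. Causes of these shifts were not tested beyond the construction named. Without read counts, what depth limits cannot be stated.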
